A study of Mus musculus with 6 samples.

Results

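Potassium channels are membrane proteins that let potassium ions cross the membrane and so hold the resting potential of a cell and its potassium content. The 93 genes described here were taken from the 50600 genes of the deposited count table by symbol alone: Kcn, a letter of a channel family, and a number or letter ending, leaving out antisense and opposite-strand transcripts and pseudogenes. They comprised 67 genes for pore-forming subunits, 10 for silent voltage-gated subunits, which work only within a channel built by other subunits, and 16 for auxiliary proteins that bind channels, and all 93 are protein-coding in GENCODE M21. RNA was sequenced from macrophages of pancreatic islets (3 libraries) and of epididymal white adipose tissue, a visceral fat depot (3 libraries), numbered 2, 4 and 6 in each tissue. The donors of both groups were 12-week-old C57BL/6J males on a chow diet, with no transgene or treatment in the labels, and the cells were sorted as DAPI-negative, CD45+, F4/80+ and CD64+. Because the design text speaks of autologous samples, libraries with the same number were taken to come from the same animal. The main test did not use this pairing. It entered only the ratios within a number, a fit with the number as a block, and the settings that left a number out. The sources used here do not give whether islets of several animals were pooled for a library.

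As background, inward rectifier channels (Kcnj genes) pass potassium most easily near the resting potential and hold it negative, voltage-gated channels (Kv1 to Kv12 families) open on depolarisation, calcium-activated channels (Kcnn and Kcnma genes) open when calcium rises, and tandem-pore channels (Kcnk genes) give a background leak. In macrophages and microglia the best studied members are the inward rectifier Kcnj2, the voltage-gated channel Kcna3, the calcium-activated channel Kcnn4 and the tandem-pore channels Kcnk6 and Kcnk13, and potassium leaving the cell is a trigger of the Nlrp3 inflammasome. Kcnj10 is best known from glia, where it takes up potassium released by neurons.

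The channels at the centre of the comparison share the selectivity filter, a short loop that lines the narrowest part of the pore. The longest coding sequence of each gene (GENCODE M21) was searched in frame for the loop's usual codons: a threonine codon, any codon, a glycine codon, a tyrosine codon and a glycine codon. This pattern was found in 47 of the 67 pore-forming genes (70.2%), in 10 of the 10 silent subunits, in 0 of the 16 auxiliary genes and in 116 of 21901 protein-coding genes (0.530%). The filter codons of 6 pore-forming genes whose values are described below are shown on the coding strand, with the pattern in capitals and 15 bases on either side, to show the shared loop and the codons around it.
Kcnj9: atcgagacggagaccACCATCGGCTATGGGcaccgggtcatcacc
Kcnj2: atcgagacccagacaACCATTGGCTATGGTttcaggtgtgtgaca
Kcna3: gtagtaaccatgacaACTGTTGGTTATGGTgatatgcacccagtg
Kcnn4: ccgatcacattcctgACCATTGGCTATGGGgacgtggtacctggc
Kcnk6: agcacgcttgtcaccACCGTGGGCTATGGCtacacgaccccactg
Kcnq1: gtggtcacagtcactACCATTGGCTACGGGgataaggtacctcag
The capitals begin at base 358 of the coding sequence in Kcnj9, 424 in Kcnj2, 1189 in Kcna3, 742 in Kcnn4, 316 in Kcnk6 and 931 in Kcnq1, counting from 1 at the start codon. The pattern was not found in Kcnj11, Kcnk13 or Kcnn1, which says only that these codons are not in their coding sequence.

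Total counts were 4089980 to 6923475 in the islet libraries and 7450890 to 9235591 in the fat libraries. Ptprc, Adgre1 and Fcgr1, the genes of the sorted surface proteins CD45, F4/80 and CD64, had counts in every library of both tissues. The macrophage genes Csf1r and Cd68 did as well. Of the 10 macrophage markers tested, 0 were called higher in islet, 2 were called lower and 8 did not pass. Those called lower were Mertk (mean 25.6 CPM in islet against 211 CPM in fat, edgeR adjusted p = 0.000586) and Lyz2 (1474 against 3692 CPM, edgeR adjusted p = 0.0237). The following features of the libraries are set beside the results below. The 12 islet endocrine markers summed to 9478, 6198 and 3466 CPM (counts scaled by TMM to a common library size) in islet libraries 2, 4 and 6, against 1.70, 6.24 and 0 CPM in fat libraries 2, 4 and 6, and all 12 passed the test as higher in islet. The 8 heat shock genes took 9.55%, 10.4% and 0.812% of counts in islet libraries 2, 4 and 6. They took 0.274%, 0.292% and 0.260% in fat libraries 2, 4 and 6. Among the islet libraries, Hspa1a, Hspa1b and Dnajb1 were highest in library 4 and the other heat shock genes in library 2. All 8 were lowest in islet library 6. Of the immediate early genes read with them, Fos, Fosb, Junb and Ier2 were called lower in islet. Their means were 259, 68.0, 423 and 100 CPM in islet, against 3304, 1646, 1651 and 412 CPM in fat. Jun, Egr1 and Atf3 did not pass. The fibroblast markers summed to at most 5.12 CPM in islet, against 387, 309 and 88.4 CPM in fat libraries 2, 4 and 6, and the pericyte markers to at most 16.6 CPM in islet, against 214, 61.8 and 32.8 CPM in fat. The endothelial markers summed to at most 29.4 CPM in islet, against 197, 83.2 and 37.6 CPM in fat, and the adipocyte markers to at most 28.0 CPM in islet, against 282, 242 and 80.0 CPM in fat. All 4 sums were highest in fat library 2 and lowest in fat library 6 among the fat libraries. In bulk samples such as these, fewer cells of a type and less RNA per cell cannot be told apart.

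Of the 93 genes, 29 were detected in islet macrophages and 36 in fat macrophages, where detected means at least 1 count in at least 2 of the 3 libraries of the tissue. The 15 genes detected in both included Kcna3, Kcnab2, Kcnab3, Kcnd1, Kcne3, Kcng2, Kcnh4, Kcnj2, Kcnj10, Kcnj14, Kcnk6, Kcnk13 and Kcnn4, and they made up 51.7% of the islet set and 41.7% of the fat set. The 14 detected in islet alone were Kcnb2, Kcnf1, Kcnh2, Kcnh3, Kcnh6, Kcnip1, Kcnj9, Kcnj11, Kcnk1, Kcnk16, Kcnma1, Kcnmb2, Kcnn3 and Kcnq3, and they held 574 counts in the islet libraries and 11 in the fat libraries. The 21 detected in fat alone included Kcna1, Kcna2, Kcna5, Kcnab1, Kcnc2, Kcnd3, Kcne4, Kcnip2, Kcnip3, Kcnj8, Kcnj15, Kcnj16, Kcnk3, Kcnk5, Kcnmb4, Kcnn1, Kcnq1, Kcnq5, Kcnt1 and Kcnt2, and they held 15 counts in the islet libraries and 719 in the fat libraries. Most of the potassium channel reads lay in the shared genes, with 5842 counts in the islet and 6643 in the fat libraries. As the sets were formed from these same counts, such splits follow largely from the definition of the sets and test nothing. Of the 43 genes detected in neither tissue, 32 had no count in any library, and Kcna4, Kcng3, Kcnh1, Kcnh7, Kcnh8, Kcnj4, Kcnj6, Kcnk2, Kcnk10, Kcnn2 and Kcns3 had 1 to 27 counts over all 6 libraries.

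Detection followed the library as well as the tissue. Of the 93 genes, those with at least 1 count numbered 38, 23 and 24 in islet libraries 2, 4 and 6, against 40, 35 and 36 in fat libraries 2, 4 and 6. Over all genes of the table the numbers were 15216, 13020 and 14323 in islet, against 19308, 17288 and 16992 in fat. Fewer detected genes in the islet libraries were thus not particular to potassium channels. At the total of the shallowest library, 4089980 counts, the numbers of potassium channel genes calculated from the counts were 35.8, 23.0 and 23.9 in islet, against 35.9, 32.4 and 33.0 in fat. Islet library 2 thus stood at the level of the fat libraries and islet libraries 4 and 6 below it. A gene without counts is therefore not detectable at this depth, which is not the same as absent.

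**Figure D1:**
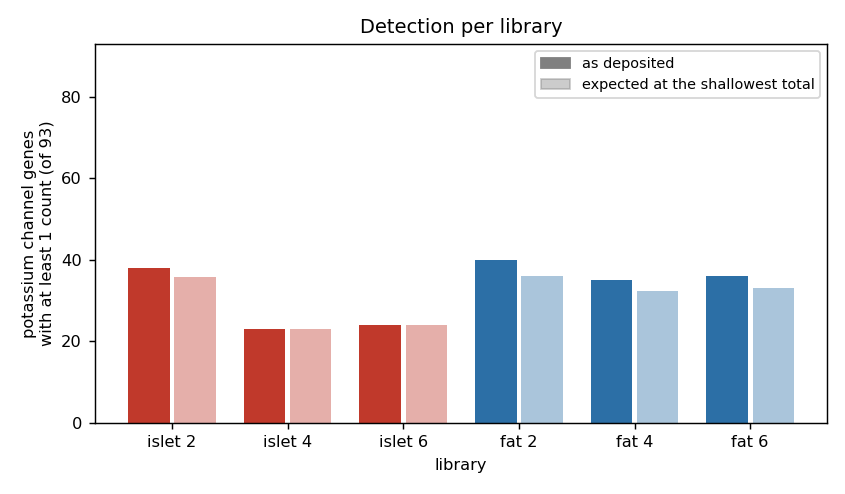
Number of the 93 potassium channel genes with at least 1 count in each library (vertical axis, full range 0 to 93), as deposited (solid bars) and as calculated for the total of the shallowest library (pale bars). Islet library 2 had 38 genes, islet libraries 4 and 6 had 23 and 24, and the fat libraries had 35 to 40.

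Summed over all 93 genes the level was 411, 438 and 391 CPM in islet libraries 2, 4 and 6, against 268, 240 and 324 CPM in fat libraries 2, 4 and 6, so every islet library lay above every fat library. The families that made up this sum differed. Per length, as summed CPM per kb of exon, inward rectifier genes took 41.0%, 52.9% and 19.8% of the potassium channel signal in islet libraries 2, 4 and 6, against 4.34%, 3.0% and 1.58% in fat libraries 2, 4 and 6. Tandem-pore genes took 25.0%, 22.8% and 34.6% in islet, against 58.6%, 57.1% and 58.2% in fat, and the Kv beta genes, whose proteins attach to voltage-gated channels from inside the cell, took 5.80%, 7.72% and 9.95% in islet, against 19.9%, 21.8% and 25.1% in fat. The Kv1 family took 17.9%, 9.96% and 18.4% in islet, against 4.81%, 5.33% and 2.16% in fat. In each of these 4 families the islet and fat shares did not overlap. The same held for the smaller Kcnq, Kcnh, Kcne, Kcnma, Kcnmb and Kcnt families, each at 3.685% or less in any library. The shares of the calcium-activated Kcnn genes overlapped (5.26%, 1.76% and 10.9% in islet, against 1.65%, 2.20% and 4.49% in fat). Shares are tied to each other, since a higher share of any family lowers the rest. In summed CPM per kb, tandem-pore genes overlapped, at 24.2, 21.7 and 34.4 in islet against 37.85, 32.7 and 43.3 in fat. The inward rectifier, Kv beta and Kv1 genes did not overlap in level either. Islet library 6 had the lowest inward rectifier and the highest tandem-pore share of the islet libraries.

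**Figure D2:**
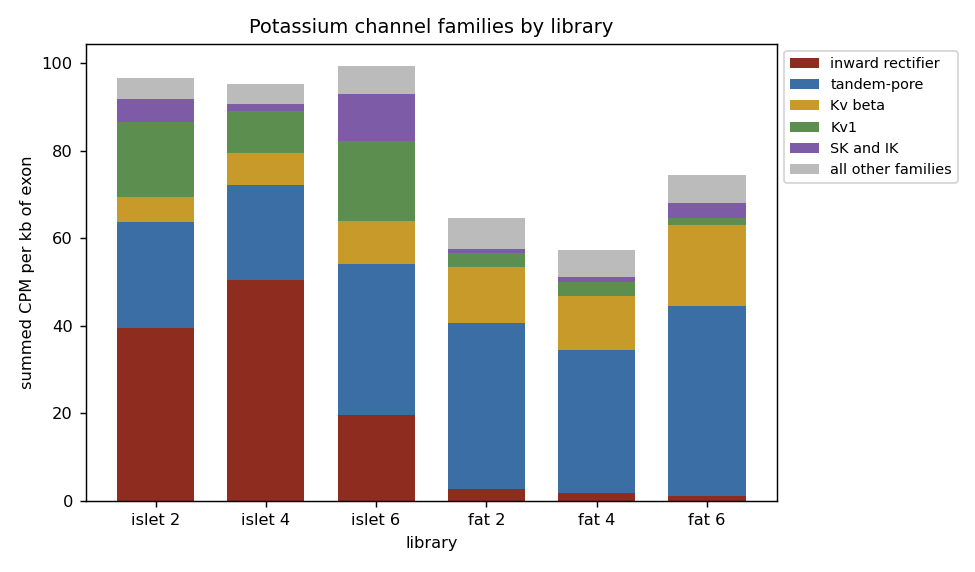
Summed level of potassium channel families in each library (vertical axis, CPM per kb of exon), stacked by family. Inward rectifiers fill 50.5 CPM per kb in islet library 4 and 1.17 to 2.80 CPM per kb in the fat libraries, where tandem-pore channels lead with 32.7 to 43.3 CPM per kb.

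Of the 93 genes, 16 passed the filter on low counts and entered the edgeR quasi-likelihood test over 12152 genes, in which 8.97% of all genes were called higher in islet and 10.5% lower at a Benjamini-Hochberg adjusted p under 0.05. Among the 16, 5 were called higher in islet (31.2%), namely Kcnj10, Kcnj2, Kcna3, Kcnj9 and Kcnj11, 2 were called lower (12.5%), namely Kcnq1 and Kcnab2, and 9 did not pass. The share called higher was above the background, with few genes behind it, and the share called lower was near it. This is no test of the group, as the list was chosen with earlier results of these data known. Kcnj9, Kcnj10 and Kcnj11, with 2, 14 and 0 fat counts, also entered the test through their islet counts, as Kcnq1 did through fat. The median log2 difference of the 16 was 0.85, beside 0.01 over all genes tested, but it was -0.52 without islet library 6, -0.71 without number 6 in both tissues and 2.78 without fat library 6, so its sign rests on single libraries. Every islet library was above every fat library in 5 of the 16 genes and below in 6, while 5 overlapped, beside 18.2% and 22.3% of all genes tested. The other 77 genes were too low to test, and 45 of these had counts, so the 16 do not stand for all 93.

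**Figure D3:**
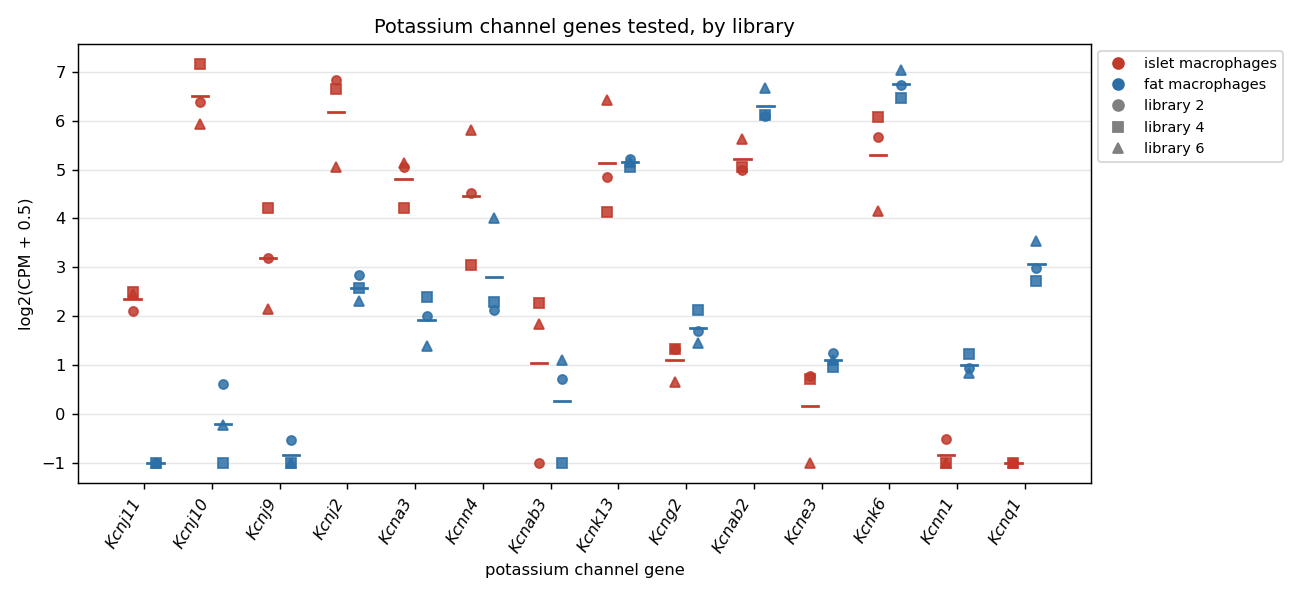
Level of 14 of the 16 tested genes in every library, as log2 of CPM plus 0.5 (vertical axis), with islet macrophages in red left of fat macrophages in blue, symbols by library number and a line at the mean. Kcnj10 stands between 60.5 and 142.5 CPM in islet and at or under 1.04 CPM in fat, and Kcnq1 is at 0 in all 3 islet libraries.

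Kcnj10 encodes the weak inward rectifier of glial cells. Its level was 83.5, 142.5 and 60.5 CPM in islet libraries 2, 4 and 6, against 1.04, 0 and 0.353 CPM in fat libraries 2, 4 and 6, from 414, 497 and 449 counts against 11, 0 and 3 counts. Islet library 4 was the highest and islet library 6 the lowest of the islet libraries, which is also the order of the summed heat shock share. The lowest islet value lay far above the highest fat value. The means were 95.5 ± 42.3 CPM in islet and 0.464 ± 0.529 CPM in fat (SD, n = 3 each), a log2 difference of 7.51 (SE 0.73, edgeR adjusted p = 0.000308), or 182-fold. Within the same library number the log2 ratio, with 0.5 CPM added to both values, was 5.77, 8.16 and 6.16 for numbers 2, 4 and 6. Its call was kept under every one of the 19 other settings run, with log2 differences between 6.56 and 8.95. With islet library 6 alone on the islet side, the library with little heat shock RNA, the log2 difference was 6.76. That fit holds no spread between islet libraries. The fold rests on 14 fat counts: the log2 difference was 8.85 without fat library 2 and 6.56 without number 4 in both tissues.

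Kcnj10 took 20.3% (exact 95% interval 18.6 to 22.1), 32.5% (30.2 to 35.0) and 15.5% (14.2 to 16.8) of all potassium channel counts in islet libraries 2, 4 and 6. In fat libraries 2, 4 and 6 it took 0.388% (0.194 to 0.694), 0% (0 to 0.204) and 0.109% (0.0225 to 0.318). The gene lies at chr1:172341210-172374085 on the plus strand (GRCm38), and its exons overlap no other annotated gene. Ins2, an insulin gene, had 27399, 12240 and 13987 counts in islet libraries 2, 4 and 6, so that Kcnj10 had 151, 406 and 321 counts for every 10000 Ins2 counts. The part of endocrine RNA in the Kcnj10 counts was not tested.

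Since Kcnj10 is known from glia, the glial genes were read beside it. Of the 10 Schwann and glia markers, 6 had no count in any islet library, among them Sox10, S100b, Gfap, Cdh19 and Foxd3. The list summed to 96.6, 101 and 102 CPM in islet, against 77.5, 73.2 and 92.7 CPM in fat, nearly all of it from Mbp and Cnp, which were present in every library of both tissues. Ncam1 was the 1 of 3 tested markers called higher in islet (11.1, 4.30 and 3.10 CPM in islet against 0.567, 0.133 and 0.353 CPM in fat, edgeR adjusted p = 0.0149). However, this call held under 12 of 19 other settings and was lost without islet library 2 or any 1 fat library (0.0554 to 0.0787). Ncam1 lay in the order of the summed endocrine markers over the islet libraries, and the part of endocrine RNA in its counts was not tested. Of the genes whose products sit with Kcnj10 in astrocyte membranes, the glutamate transporters Slc1a2 and Slc1a3, the connexins Gja1 and Gjb6 and the dystrobrevin Dtna had no count in islet, while the water channel Aqp4 had 0.806, 4.01 and 0 CPM in islet libraries 2, 4 and 6 and no count in fat. Kcnj16, a subunit that pairs with Kcnj10 in kidney and brain, had no count in any islet library and 4, 3 and 8 counts in fat libraries 2, 4 and 6.

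Kcnj9 encodes a G protein-gated inward rectifier subunit that works together with other members of its subfamily. It had 8.67, 18.1 and 3.91 CPM in islet libraries 2, 4 and 6, against 0.189, 0 and 0 CPM in fat libraries 2, 4 and 6. Its 43, 63 and 29 islet counts against 2, 0 and 0 fat counts gave a ratio of 113 (counting interval 30.7 to 944, edgeR adjusted p = 0.00363), and every islet library was above every fat library. The call was lost without number 2 (adjusted p = 0.0858) and without number 4 (adjusted p = 0.0565) in both tissues. With islet library 6 alone on the islet side, a fit without islet spread, the log2 difference was 5.43, beside 6.81 with all libraries. Kcnj9 lay in the same order over the islet libraries as Kcnj10 and the summed heat shock share. It stood at 10.4%, 12.7% and 6.46% of the Kcnj10 counts in islet libraries 2, 4 and 6. The partner subunits Kcnj3 and Kcnj5 had no count in any library, and Kcnj6 had 3 counts, all in fat library 6.

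Kcnj9 and Kcnj10 are neighbours on chromosome 1, with 11891 bases between them. Kcnj9 lies at chr1:172320501-172329318 on the minus strand, so their starts face each other and the genes run apart, and 4.01% of the Kcnj9 exons overlap an antisense gene. As both were called higher in islet, their promoters are shown, from 250 bases before to 50 bases after each start (RefSeq, GRCm38.p6), on the strand of the gene, at chr1:172340960-172341259 (plus) for Kcnj10 and chr1:172329273-172329572 (minus) for Kcnj9, together with that of Kcnj2 at chr11:111065914-111066213 (plus). Capitals mark matches on either strand to GAGGAA, the core bound by the macrophage factor PU.1, to TGANTCA, the AP-1 site, and to CACGTG, the E-box.
Kcnj10: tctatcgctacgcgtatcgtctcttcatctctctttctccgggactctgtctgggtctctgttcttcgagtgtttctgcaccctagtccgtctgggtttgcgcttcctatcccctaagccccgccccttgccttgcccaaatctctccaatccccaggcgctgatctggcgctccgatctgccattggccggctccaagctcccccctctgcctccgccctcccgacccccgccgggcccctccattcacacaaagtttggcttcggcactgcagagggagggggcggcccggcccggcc
Kcnj9: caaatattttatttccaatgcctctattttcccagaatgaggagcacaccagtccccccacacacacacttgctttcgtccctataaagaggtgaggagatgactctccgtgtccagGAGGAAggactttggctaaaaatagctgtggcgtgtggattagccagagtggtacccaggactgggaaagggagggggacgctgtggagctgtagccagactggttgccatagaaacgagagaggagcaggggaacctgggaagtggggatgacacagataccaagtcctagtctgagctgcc
Kcnj2: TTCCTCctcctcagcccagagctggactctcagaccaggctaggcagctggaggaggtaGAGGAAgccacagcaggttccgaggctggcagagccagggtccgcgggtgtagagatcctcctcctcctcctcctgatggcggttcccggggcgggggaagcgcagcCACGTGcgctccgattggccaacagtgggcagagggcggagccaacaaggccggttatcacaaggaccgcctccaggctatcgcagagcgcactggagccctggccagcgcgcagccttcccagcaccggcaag
The Kcnj10 window held none of these letters. The Kcnj9 window held 1 PU.1 core, and the Kcnj2 window held 2 PU.1 cores, 1 of them on the other strand, and 1 E-box, with no overlap between matches. Over 32841 promoters of this length, 28.3% held the PU.1 core, 7.81% the AP-1 site and 7.15% the E-box.

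Kcnj2 encodes the strong inward rectifier that sets the resting potential of macrophages, muscle and many other cells. Its level was 113, 100.1 and 32.9 CPM in islet libraries 2, 4 and 6, against 6.71, 5.44 and 4.47 CPM in fat libraries 2, 4 and 6. All islet values were above all fat values, and islet library 6, the library with little heat shock RNA, was the lowest of the islet libraries. The means were 81.9 ± 43.0 CPM in islet and 5.54 ± 1.13 CPM in fat (SD, n = 3 each), a log2 difference of 3.87 (SE 0.49, edgeR adjusted p = 0.00108), or 14.7-fold. With islet library 6 alone on the islet side, a fit without islet spread, the log2 difference was 2.48. The call was lost only without number 2 in both tissues (adjusted p = 0.0531). The gene lies at chr11:111066164-111076821 on the plus strand (GRCm38). Kcnj16, the next gene at 38195 bases upstream on the same strand of chromosome 11, had no islet count, as given above.

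Kcnj11, at chr7:46093953-46100764 on the minus strand, encodes the pore of the ATP-sensitive channel that couples glucose to insulin release in beta cells. It had 3.83, 5.16 and 4.99 CPM in islet libraries 2, 4 and 6, against 0 CPM in all 3 fat libraries, from 19, 18 and 37 islet counts. Taking 3 counts in each fat library as the floor, it was at least 13.5-fold higher in islet (edgeR adjusted p = 0.00599), and the call was lost without number 2 in both tissues (adjusted p = 0.0897). Its regulatory subunit Abcc8 had 11.7, 1.15 and 16.3 CPM in islet libraries 2, 4 and 6, against 0, 0 and 0.235 CPM in fat. Set against Ins2, Kcnj11 had 6.94, 14.7 and 26.5 counts for every 10000 Ins2 counts in islet libraries 2, 4 and 6. On the same scale Abcc8 had 21.2, 3.27 and 86.5 counts. The endocrine markers Slc30a8, Pdx1 and Ins1 had 32.85, 44.9 and 56.5, then 14.6, 10.6 and 16.4, and 3593, 3549 and 3224 counts. All 12 endocrine markers were present in the islet libraries, and their part in the Kcnj11 counts was not tested. The remaining inward rectifiers were low: Kcnj14 had 9 counts in islet and 7 in fat, and Kcnj8 and Kcnj15 had 0 counts in islet and 29 and 18 in fat.

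Kcna3, at chr3:107036169-107038070 on the plus strand, encodes the voltage-gated channel of lymphocytes and activated microglia. Its level was 32.9, 18.1 and 34.8 CPM in islet libraries 2, 4 and 6, against 3.50, 4.78 and 2.12 CPM in fat libraries 2, 4 and 6. Every islet library was above every fat library. Islet library 4 was the lowest and islet library 6 the highest, the reverse of the summed heat shock share. The part of the heat shock genes in Kcna3 was not tested. The means were 28.6 ± 9.14 CPM in islet and 3.46 ± 1.33 CPM in fat (SD, n = 3 each), a log2 difference of 3.05 (SE 0.44, edgeR adjusted p = 0.00216), or 8.26-fold. The call was lost only without number 2 in both tissues (adjusted p = 0.0887). None of the 7 other members of its family had a count in islet, and 3 of them had none in fat. Kcna5 had 35, 9 and 10 counts in fat libraries 2, 4 and 6, Kcna2 had 4, 6 and 6, and Kcna1 and Kcna4 had 5 and 2 over the 3 fat libraries.

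Kcnab2, the main Kv beta subunit, belongs to the aldo-keto reductase fold and binds Kv1 channels, Kcna3 among them. It went the other way from Kcna3, with 31.2, 32.7 and 49.2 CPM in islet libraries 2, 4 and 6, against 68.0, 68.6 and 100.7 CPM in fat libraries 2, 4 and 6. The groups did not overlap, and library 6 was the highest in both tissues. The gene lies at chr4:152390742-152477871 on the minus strand, and 2.24% of its exons overlap another gene on that strand. The means were 37.7 ± 9.96 CPM in islet and 79.1 ± 18.7 CPM in fat (SD, n = 3 each), 2.09-fold lower in islet (log2 -1.06, SE 0.29, edgeR adjusted p = 0.0320). This call held under 12 of 19 other settings and was lost without islet library 2 or 4 or any 1 fat library (adjusted p between 0.0572 and 0.137), and without number 2 or 4 in both tissues (0.220 and 0.113). Kcnab1 had 0 counts in islet and 22, 12 and 3 in fat, and Kcnab3, at a mean of 2.47 CPM in islet against 0.927 CPM in fat, did not pass (adjusted p = 0.562).

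Kcnq1, at chr7:143106362-143427042 on the plus strand, encodes a voltage-gated channel of heart and epithelia. It had no count in any islet library, against 7.38, 6.10 and 11.1 CPM in fat libraries 2, 4 and 6. Taking 3 counts in each islet library as the floor, it was at least 13.1-fold lower in islet (edgeR adjusted p = 0.00310), and the call was lost without number 2 in both tissues (adjusted p = 0.0686). Fat library 6, the highest for Kcnq1, was the lowest for the summed fibroblast, pericyte, endothelial and adipocyte markers, and the part of these cell types in the Kcnq1 counts was not tested. Only 121 bases, 2.96% of the Kcnq1 exons, overlap the antisense transcript Kcnq1ot1, which had 215, 116 and 463 counts in the islet libraries where Kcnq1 had none. Of the Kcne genes, whose small proteins change the gating of Kcnq1, Kcne4 had 0 counts in islet and 37, 7 and 4 in fat, Kcne3 had a mean of 0.785 CPM in islet against 1.67 CPM in fat (adjusted p = 0.538), and Kcne1 and Kcne2 had no count in any library.

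**Figure D4:**
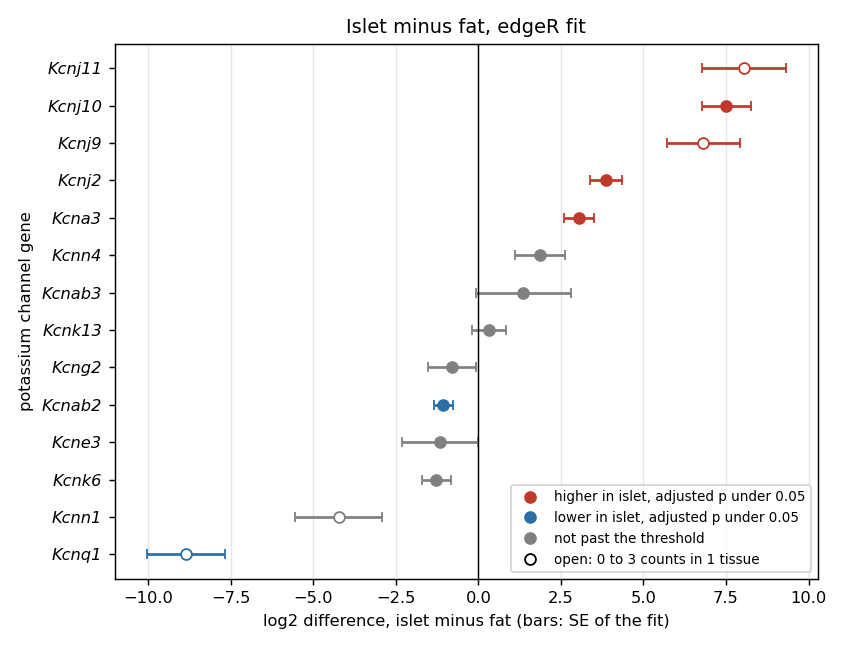
Log2 difference, islet minus fat, of 14 of the 16 tested genes in the edgeR fit (horizontal axis), with bars for the standard error and colour for the call. Open symbols mark genes with 0 to 3 counts in 1 tissue, whose fitted value depends on the prior count of the fit: the bound for Kcnj11 is at least 13.5-fold higher and for Kcnq1 at least 13.1-fold lower. The filled symbols past the threshold run from Kcnj10 at 7.51 to Kcnab2 at -1.06.

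The tandem-pore channels Kcnk6 and Kcnk13 were 2 of the 3 highest genes per length in fat macrophages. Kcnk6, a leak channel through which potassium leaves mouse macrophages during inflammasome activation, had 50.6, 67.4 and 17.2 CPM in islet libraries 2, 4 and 6, against 105.9, 87.6 and 130.1 CPM in fat libraries 2, 4 and 6. The groups did not overlap, but the spread within islet was wide, and the difference did not pass (45.1 ± 25.5 against 107.9 ± 21.3 CPM, SD, n = 3 each, log2 -1.27, SE 0.45, edgeR adjusted p = 0.0812). It passed as lower in islet with DESeq2 (adjusted p = 0.0335) and with limma voom (0.0322). The same call came with no filter, without islet library 4 and without islet library 6. With islet library 6 alone on the islet side, a fit without islet spread, the log2 difference was -2.73. Kcnk13, which holds the resting potential of microglia, had 28.4, 16.9 and 85.7 CPM in islet libraries 2, 4 and 6, against 36.8, 32.8 and 35.3 CPM in fat libraries 2, 4 and 6. Islet library 6 was above all fat libraries and islet libraries 2 and 4 below them, so there was no common direction (log2 0.33, SE 0.52, edgeR adjusted p = 0.704). With islet library 6 alone the log2 difference was 1.21, again from a fit without islet spread. Islet libraries 2 and 4 were those with 9.55% and 10.4% of counts in heat shock genes, and the part of this in Kcnk6, Kcnk13, Kcnj2, Kcnj9 and Kcnj10 was not tested.

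Kcnn4 encodes the calcium-activated channel that supports calcium entry in T cells and macrophages. Its level was 22.4, 7.74 and 55.6 CPM in islet libraries 2, 4 and 6, against 3.88, 4.38 and 15.5 CPM in fat libraries 2, 4 and 6, so islet library 4 lay below fat library 6, and library 6 was the highest in both tissues. The difference did not pass (28.6 ± 24.6 against 7.93 ± 6.59 CPM, SD, n = 3 each, log2 1.86, SE 0.76, edgeR adjusted p = 0.127). It was higher in islet within each of the 3 numbers, and a fit with these numbers as a block called it higher (log2 1.76, SE 0.44, edgeR adjusted p = 0.0259). Kcnn4 was also called higher with no filter and without islet library 4, which makes 3 of 19 other settings. Kcnn1, a small-conductance channel of neurons, had 0.202, 0 and 0 CPM in islet, against 1.42, 1.86 and 1.29 CPM in fat, with an adjusted p = 0.0545. It passed as lower in islet with DESeq2 (adjusted p = 0.0305), with limma voom (0.0348) and with the filter of 1 CPM in all 3 libraries of either tissue (0.0288), 3 of the 16 other settings in which it was tested. Kcng2, a silent subunit, had a mean of 1.70 CPM in islet against 2.94 CPM in fat (adjusted p = 0.501), and another opposite transcript overlaps 9.10% of its exons. Kcnd1 and Kcnh4, detected in both tissues and too low to test, had 18 and 19 counts in islet, against 27 and 12 in fat.

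Ranked by level per length, the islet order was Kcnj10 (17.7 ± 7.82 CPM per kb, SD, n = 3), Kcnj2 (15.1 ± 7.89), Kcna3 (15.01 ± 4.81), Kcnk13 (14.0 ± 11.8) and Kcnk6 (10.9 ± 6.15), neighbours that differed by less than their spread. Next came Kcnab2 (6.76 ± 1.79), Kcnn4 (5.59 ± 4.80) and Kcnj9 (2.38 ± 1.68 CPM per kb). The leading gene changed with the library: Kcnj2 in islet library 2, Kcnj10 in islet library 4 and Kcnk13 in islet library 6. In fat, Kcnk6 led in all 3 libraries at 26.0 ± 5.14 CPM per kb, followed by Kcnab2 (14.2 ± 3.36) and Kcnk13 (11.2 ± 0.652), and the next gene, Kcnq1, was at 2.00 ± 0.629 CPM per kb. Kcnj10, the first in islet, was number 28 in fat at 0.0859 CPM per kb.

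**Figure D5:**
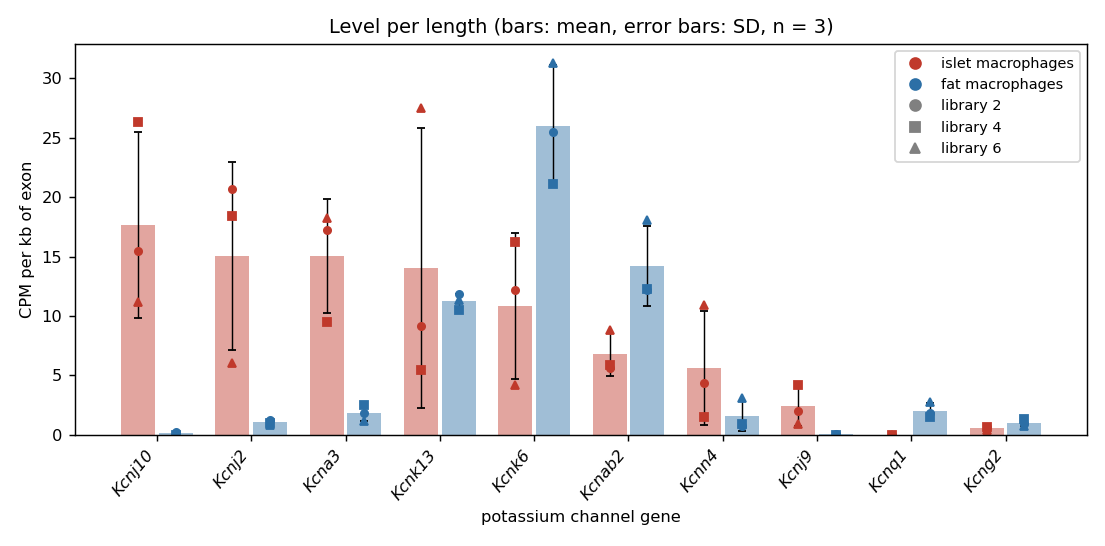
Level per length (vertical axis, CPM per kb of exon) of the 8 highest potassium channel genes of each tissue, with bars at the mean, error bars for the SD (n = 3) and symbols for the libraries. Islet macrophages (red, left of each pair) have 5 genes between 10.9 and 17.7 CPM per kb, and fat macrophages (blue) have Kcnk6 at 26.0 CPM per kb and Kcnj10 at 0.0859 CPM per kb.

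Most channels detected in islet alone were too low to test and uneven between libraries. Kcnip1, a calcium-binding partner of Kv4 channels, had 17, 0 and 44 counts in islet libraries 2, 4 and 6, Kcnk16, a tandem-pore channel of pancreatic beta cells, had 25, 0 and 16, and Kcnk1 had 7, 0 and 30, with no count in fat for any of them. They were at least 9.04-fold, 6.95-fold and 5.27-fold higher in islet against a floor of 3 counts per fat library. All 3 were missing from islet library 4, the shallowest library at 4089980 counts. Its endocrine markers summed to 6198 CPM, above the 3466 CPM of islet library 6. Abcc8, the partner of Kcnj11 in beta cells, had 58, 4 and 121 counts in islet libraries 2, 4 and 6. Kcnmb2, an auxiliary subunit of the large-conductance calcium-activated channel, had 10, 5 and 14 counts in islet and none in fat (at least 5.16-fold higher), and Kcnma1, the pore of that channel, had 8, 7 and 36 counts in islet against 2, 0 and 0 in fat (ratio 42.8, counting interval 11.3 to 363). Kcnh2, the channel that repolarises the heart, had 9, 2 and 43 counts against 2, 0 and 0 (ratio 45.3, 11.9 to 383), and Kcnn3 had 22, 6 and 0 against 0, 0 and 2 (ratio 23.5, 5.92 to 203). Kcnq3, Kcnf1, Kcnb2, Kcnh6 and Kcnh3 had 7 to 18 counts in islet and 0 to 2 in fat. Kcng3, a silent subunit, had 24 counts in islet library 6 alone, against 3 in fat library 6. The part of endocrine RNA in these counts was not tested.

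Most channels detected in fat alone were also low, and their order over the fat libraries differed. Kcne4, Kcnj8 and Kcnab1 had no count in islet. In fat libraries 2, 4 and 6, Kcne4 had 37, 7 and 4 counts, Kcnj8 23, 6 and 0 counts and Kcnab1 22, 12 and 3 counts. This was the order of the summed fibroblast, pericyte, endothelial and adipocyte markers. Kcnq1, with 78, 46 and 94 counts, and Kcnt2 and Kcnk5, given below, lay in other orders. Kcnj8 is the pore of the vascular ATP-sensitive channel, and its regulatory subunit Abcc9 had no count in islet, against 14.3, 4.51 and 0.588 CPM in fat libraries 2, 4 and 6. The part of other cell types in these counts was not tested. Kcnt2, a sodium-activated channel, had no count in islet, against 27, 41 and 9 counts in fat (at least 4.84-fold lower in islet). Kcnk5, an alkaline-sensitive tandem-pore channel, had no count in islet, against 17, 24 and 10 in fat (at least 3.19-fold lower). The untested members of this set had 0 to 5 counts in islet and 2 to 77 in fat, so that for most of them, such as Kcnip3 with 4 counts in islet and 29 in fat, the depth limits what can be said.

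Other genes that move potassium, or that respond to it, were read from 8 lists of partners, in which 83 of 84 genes were found and 51 tested. Of these, 6 were higher in islet (11.8%) and 9 lower (17.6%), beside 8.97% and 10.5% of all genes tested, and the median log2 difference was -0.29. Among 13 tested genes of the sodium potassium pump and the cation chloride cotransporters, 1 was higher and 5 lower. The pump regulator Fxyd2 was lower in islet, with 1.41, 0.860 and 0 CPM in islet libraries 2, 4 and 6, against 99.6, 126 and 138 CPM in fat libraries 2, 4 and 6 (177-fold lower, edgeR adjusted p = 0.000249; log2 -8.62 without islet library 2 and -6.67 without islet library 6). Fxyd5, another regulator of the same pump, was higher in islet with 341, 379 and 271 CPM, against 108, 111 and 137 CPM in fat (log2 1.48, SE 0.25, adjusted p = 0.00417), a call that was lost without number 2 (0.128) or number 4 (0.0640) in both tissues. The potassium chloride cotransporter Slc12a7 was lower in islet, with 41.9, 41.9 and 52.4 CPM against 153, 142 and 158 CPM in fat (log2 -1.73, SE 0.22, adjusted p = 0.00116).

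Among 7 tested Trp channels, which let cations in, 2 were higher and 1 lower in islet. Trpv2 had 65.5, 58.8 and 55.1 CPM in islet libraries 2, 4 and 6, against 16.9, 11.7 and 19.8 CPM in fat (adjusted p = 0.00225), and Trpm2, opened by oxidative stress, had 71.8, 73.1 and 46.3 CPM in islet, against 26.1, 19.2 and 16.4 CPM in fat (adjusted p = 0.00627). Trpv4 was lower in islet, with 23.6, 31.3 and 55.2 CPM against 100.4, 93.1 and 110 CPM in fat (adjusted p = 0.0156). Of 11 tested chloride and volume-regulated anion channel genes, Clic4 (583, 367 and 955 CPM in islet against 196, 158 and 146 CPM in fat) and Lrrc8d were higher, and Clcn5 (30.2, 22.1 and 26.4 against 130, 129 and 132 CPM) and Lrrc8a, the essential subunit of the volume-regulated channel (3.02, 6.59 and 3.50 against 25.1, 21.6 and 30.9 CPM), were lower. The edgeR adjusted p values were 0.00781 for Clic4, 0.0467 for Lrrc8d, 0.000344 for Clcn5 and 0.00309 for Lrrc8a, and the Lrrc8d call was lost with the replicate block (0.0532) and held under 7 of 19 other settings. Leaving out 1 fat library ended the calls for Trpm2 (0.0509 without fat library 4), Trpv4 (0.0636 without fat library 2 and 0.0654 without fat library 6) and Clic4 (0.0567 without fat library 4 and 0.0532 without fat library 6).

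In the list on potassium efflux and the Nlrp3 inflammasome, 1 of 9 tested genes passed. Il1b, the cytokine gene whose product the inflammasome processes, had 637, 380 and 439 CPM in islet libraries 2, 4 and 6, against 68.2, 24.4 and 44.4 CPM in fat libraries 2, 4 and 6 (log2 3.41, SE 0.42, edgeR adjusted p = 0.00104). Nlrp3 itself (159 ± 79.3 CPM in islet and 128 ± 25.4 CPM in fat, SD, n = 3 each, adjusted p = 0.648) and the ATP-gated channel P2rx7 (adjusted p = 0.505) did not pass. None of the 5 store-operated calcium entry genes and none of the 3 tested genes for other potassium-permeable channels passed, and the 9 partner subunits of the ATP-sensitive and large-conductance channels were too low to test. In the list of Kcnj10 partners in glia, 1 of 3 tested genes passed: Gja1 had 0 CPM in islet, against 20.5, 12.3 and 4.00 CPM in fat, the order of the stromal markers (at least 19.7-fold lower in islet, edgeR adjusted p = 0.00471), and the part of stromal cells in it was not tested.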

How the data were processed

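The authors deposited a table of raw read counts, not normalised, for 50600 genes in 6 libraries. Per the labels' protocols, 10 ng of total RNA went into strand-specific, ribosome-depleted low-input libraries. The submitters' processing notes name STAR, featureCounts, Subread 1.6.4 and GRCm38; the gene annotation and whether counting used the strand are not given in these sources, so reads of a gene and of an overlapping antisense gene cannot be told apart. Identifiers were matched without version to GENCODE M21 (50376 of 50600, all 93 potassium channel genes) for coordinates and exon lengths. Promoters are RefSeq's (GRCm38.p6), and Kcnj11 and Kcnq1 were not in that table.

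The test was edgeR 4.0.16 in R 4.3.3 (filterByExpr by tissue, TMM, robust quasi-likelihood fit with tissue as the only term, tested as islet minus fat), with Benjamini-Hochberg adjustment over 12152 genes and a threshold of 0.05. CPM uses the TMM-adjusted library size, and CPM per kb divides it by the exonic length. A tissue without counts was given a floor of 3 counts per library, and with 1 to 3 counts in a tissue the ratio is given with a counting interval. Intervals are exact 95% binomial ones, and intervals and floors cover counting error only. p-values measure the spread between these samples. A fit with 1 islet library holds the spread of the fat libraries alone, so no p-value is given for it.

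The pairing of the libraries comes from the design text. The counts do not show it: deviations from the tissue mean correlated, across genes, at 0.046, 0.063 and -0.00759 for the same numbers and at -0.142 to 0.103 for other numbers. Other settings tried were upper-quartile and RLE factors, DESeq2 1.42.0, voom in limma 3.58.1, other filters, the replicate number as a block, other gene sets, and libraries left out.

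The potassium channel genes, partner lists and marker lists were chosen with earlier results of these data known. Named were Kcnj10, the genes past the threshold, the genes detected in either tissue, the first and last by level per length, the 2 genes per partner list with the smallest adjusted p in each direction, and the leading or missing markers. Any other gene is named with its values in view. Some genes and 1 sequence that the rule takes are counted and not reported here. Marker lists not described beside a result summed, in CPM, to: macrophage 6179 to 8453 in islet and 8173 to 10150 in fat, acinar and duct 5.44 to 76.8 and 3.40 to 4.64, T and NK cell 6.59 to 16.3 and 13.8 to 20.3, B cell 38.0 to 222 and 167 to 242, granulocyte and mast cell 0.269 to 6.02 and 2.84 to 4.25, and dendritic cell 137 to 284 and 117 to 120.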

Additional observations from a re-analysis of the deposited data

Results flagged for a closer look

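Rows of the table whose names resemble the potassium channel genes but which the symbol rule leaves out also held counts. Kcnq1ot1, the long antisense RNA of the Kcnq1 locus, had 215, 116 and 463 counts in islet libraries 2, 4 and 6, against 698, 374 and 205 counts in fat libraries 2, 4 and 6, so its highest count was 698, in fat library 2. On the CPM scale it stood at 43.3, 33.3 and 62.4 in islet, against 66.0, 49.6 and 24.1 in fat. The groups overlapped and the difference did not pass (log2 -0.00, SE 0.40, edgeR adjusted p = 0.996), while Kcnq1 itself had no count in islet. Kcnab3os, opposite the auxiliary gene Kcnab3, had 1, 0 and 13 counts in islet libraries 2, 4 and 6 and none in fat, so its highest count was 13. Groups of 3 libraries are too small for a test of single outlying samples.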

How the results depend on the processing

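The Kcnj10 difference kept its direction and its call under all 19 alternatives (adjusted p 5.08e-52 to 0.0222). No named potassium channel or partner gene past the threshold changed its direction. Among the 16 potassium channel genes tested, 5 were higher and 2 lower. They numbered 13 and 7 of 61 tested with no filter, where 1486 and 1879 of 22793 genes were called. With a filter of 1 CPM in all 3 libraries of either tissue they numbered 7 and 6 of 19, beside 1192 and 1415 of 12108 genes. Of the 16, 5 and 4 passed with DESeq2 (1431 and 1740 of 12152 genes) and with limma voom (1125 and 1513). A replicate block gave 6 and 2 of the 16, beside 884 and 1103 of 12152 genes. The block added Kcnn4, ended the Lrrc8d call and changed no other call among the named potassium channel and partner genes. With single libraries or numbers left out they ranged from 1 to 10 and from 0 to 5, all genes from 157 to 1649 higher and from 224 to 2022 lower (1090 and 1271 with all libraries), and partner genes from 1 to 7 and from 2 to 13 (6 and 9). Without islet libraries 2 and 4, 2064 genes were higher and 2916 lower, of these 12 and 18 partner genes, and the median log2 difference of all genes moved to -0.20; with no filter it was -0.30. The median log2 difference of the tested potassium channel genes, 0.85, was -0.090 with no filter and ranged from -0.71 to 2.78 with libraries left out, so its sign is not stable. Detected genes numbered 15 in islet if a count in all 3 libraries was asked for, and 16 to 22 in islet and 27 to 31 in fat with a library left out. The cause of these changes was not tested, except that fewer libraries or other filters change which genes enter the test.

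Without number 2 in both tissues, which leaves 2 libraries per tissue, Kcnj10, Fxyd2, Clcn5 and Il1b kept their calls, and the other calls among the potassium channel genes, the named partner genes and Ncam1 were lost, while 8 of the 12 endocrine markers stayed past the threshold (12 under each other setting). Without number 4 in both tissues, Kcnj9, Kcnab2, Fxyd5, Trpm2, Trpv4, Lrrc8d and Ncam1 lost theirs (adjusted p 0.0565 to 0.113). The settings were run on Ncam1 and the endocrine markers after the data were seen. Depth limits the 45 untested genes with counts: at 4089980 counts, 1 count is 0.287 CPM or less, and a gene at 0 lies at or under the floor.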
